A study of Mus musculus with 23 samples.

Results

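The 9 genes Reg3g, Reg3b, Reg4, Retnlb, Lypd8, Sval1, Lpo, Ang4 and Pla2g2a encode Reg family lectins and other secreted proteins that act on bacteria, and their transcripts were followed through 23 libraries of mouse colon. They were taken by gene symbol from a table of 55449 genes, and all 9 were present. The 9 were chosen by a proposal that had levels and fold changes of these same libraries in view, and which of those values it used is not recorded. The fold changes and adjusted p-values given here therefore place each gene among all genes tested and are no independent evidence for the list.

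All mice were male C57BL/6 animals of the Cdx2Apc f/w line, in which a Cre recombinase under the Cdx2 promoter deletes 1 copy of Apc in cells of the Cdx2 lineage, so every group, controls included, carried the deletion. They were 6 to 8 weeks old at the start, were fed a 60% high-fat diet (HFD), received antibiotics in the drinking water and were then gavaged with live Bacteroides fragilis 638R. BSHlow mice received the strain with an empty vector (labelled BF638R bsh-), which has little bile salt hydrolase, the bacterial enzyme that removes taurine or glycine from bile acids. BSHhigh mice received the same strain carrying the bsh gene of another B. fragilis strain (BF638R bsh+). After 12 weeks, tumors (4 BSHlow and 3 BSHhigh libraries) and non-tumor colon (4 and 4) were sampled, and after 2 weeks normal colon (4 and 4). RNA was taken from pieces of colon tissue and not from separated cells. Fewer cells of a given kind and less RNA per cell therefore cannot be told apart in any value below. No source states which animals the libraries share, and p-values measure the spread between these libraries. The 3 BSHhigh tumor libraries carry no replicate number that matches a sample label and are named a, b and c.

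The gut epithelium holds bacteria away from its surface with mucus and with secreted proteins that bind or damage them. Reg3g and Reg3b are C-type lectins of enterocytes and secretory cells that bind surface molecules of Gram-positive and Gram-negative bacteria, and both are classic targets of interleukin-22 acting through STAT3. Retnlb is a goblet cell product, Lypd8 is shed by colonocytes and binds flagella, and Lpo oxidizes thiocyanate to an antibacterial product. Ang4 is an antibacterial ribonuclease of goblet and Paneth cells. Pla2g2a, where the gene is intact, encodes a phospholipase that attacks bacterial membranes. Reg4 is a lectin of enteroendocrine and deep crypt secretory cells, and Sval1 is a secreted protein named for its likeness to seminal vesicle antigen.

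On the GRCm38 assembly, Reg3g (ENSMUSG00000030017.2) lies on the minus strand at chr6:78466269-78468872 and Reg3b (ENSMUSG00000071356.7) on the plus strand at chr6:78370657-78373466. Reg4 lies at chr3:98222156-98236748, Retnlb at chr16:48816856-48818892, Lypd8 at chr11:58379043-58390728, Sval1 at chr6:41951630-41956098, Lpo at chr11:87806428-87828289, Ang4 at chr14:51763878-51773590 and Pla2g2a at chr4:138831857-138835186. The longest spliced transcripts of Reg3g (771 bases) and Reg3b (783 bases) were identical at 561 of 809 aligned positions (69.3%), with a longest identical run of 35 bases. All counts of the 9 genes were whole numbers in all 23 libraries. Pla2g2a is annotated as a polymorphic pseudogene, being disrupted in C57BL/6 mice, and it overlaps Pla2g5 on the opposite strand. The library kit keeps strand per the labels, but the strand setting of the counting is not given in the sources used here, so that reads of Pla2g2a and Pla2g5 may not have been kept apart. The other 8 genes overlap no annotated gene.

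The bases before the start sites of Reg3g and Reg3b are printed because their levels were the most alike of all pairs across libraries, and those of Lypd8 and Sval1 because they were the 2 genes called in the test of a difference between tissues. They come from RefSeq (GRCm38.p6), in which 7 of the 9 genes had a promoter entry, Retnlb and Pla2g2a having none. Each line gives the last 150 bases before the RefSeq start. Capitals mark runs of at least 8 identical aligned bases in Reg3g (chr6:78468875-78469024, minus strand) and Reg3b (chr6:78370735-78370884, plus strand), and matches to the letters TATANNA in Lypd8 (chr11:58378882-58379031, plus strand). Sval1 (chr6:41951478-41951627, plus strand) held no match to any motif searched.

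Reg3g: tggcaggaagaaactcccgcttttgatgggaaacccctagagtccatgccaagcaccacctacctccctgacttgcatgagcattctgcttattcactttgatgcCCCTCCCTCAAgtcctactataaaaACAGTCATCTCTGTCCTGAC
Reg3b: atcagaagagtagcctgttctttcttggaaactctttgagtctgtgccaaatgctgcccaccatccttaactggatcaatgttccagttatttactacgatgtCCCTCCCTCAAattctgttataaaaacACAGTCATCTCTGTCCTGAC
Lypd8: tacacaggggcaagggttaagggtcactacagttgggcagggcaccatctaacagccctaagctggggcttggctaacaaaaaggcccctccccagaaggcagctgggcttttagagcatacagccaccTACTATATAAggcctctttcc
Sval1: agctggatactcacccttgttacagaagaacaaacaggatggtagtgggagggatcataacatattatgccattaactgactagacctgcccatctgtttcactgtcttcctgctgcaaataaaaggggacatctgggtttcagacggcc

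Over the 250 bases before their starts, Reg3g and Reg3b were 68.9% identical, against 44.4% to 50.9% for the other 20 pairs of the 7 genes. Their longest shared run was the 20 bases next to the start. The letters TATANNA, read on both strands, occurred in Reg3g, Reg3b, Reg4, Lypd8 and Ang4, with 2 matches overlapping each other in Reg3g, Reg3b and Lypd8, and in 20.6% of all 32851 promoter windows. TTCNNNGAA, the palindrome that STAT proteins bind, occurred in Reg3b and Ang4 and in 7.02% of all windows. TTTATG, a site of CDX factors, occurred in Reg3b (10.8% of all windows), and TGANTCA, an AP-1 site, in Ang4 (6.75%). A match of letters is a description of these windows and not a binding site.

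Library totals ran from 12401388 to 17903008 expected counts (median 15874872). Each level is a CPM, the counts of a gene per 1000000 counts, on library sizes scaled by the trimmed mean of M-values (TMM). Epithelial markers such as Epcam and Krt8 summed to 4895 to 18685 CPM in all libraries, and 6 targets of WNT signaling to 950 to 2194 CPM in tumors, against 34.0 to 72.2 CPM in the other libraries. Apc itself is no check of the BSH groups, since all mice share the genotype. Non-tumor and tumor pieces differed in composition: goblet cell markers summed to 10874 to 26841 CPM in non-tumor colon, 147 to 267 CPM in BSHlow tumors and 736 to 3847 CPM in BSHhigh tumors, and markers of absorptive colonocytes to 2076 to 5045, 62.4 to 146 and 170 to 824 CPM.

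Lypd8 was the most abundant of the 9 per kilobase of its longest transcript in 5 of the 6 groups, without overlap with the next gene by median. Its median was 10646 CPM per kilobase in BSHlow and 11394 in BSHhigh non-tumor colon, where it made up 1.17% to 1.49% of all counts and ranked 2 or 3 among all genes in every library. Sval1 and then Reg4 came next in both groups of non-tumor colon, each apart from the gene below it, while the other 6 genes followed with overlapping ranges. In BSHlow tumors the order was different: Pla2g2a led with a median of 125 CPM per kilobase and overlapped Lypd8 at 107, and Retnlb was last at 0.274, apart from the gene above it. In BSHhigh tumors Lypd8 led again at 2411 CPM per kilobase, and Reg3g (302) and Reg3b (295) followed and overlapped each other. The highest Reg3b value there (1185) lay above the lowest of Lypd8 (802). At 2 weeks Reg3b came second after Lypd8, with medians of 761 and 1740 CPM per kilobase, overlapping Retnlb, and Pla2g2a was last.

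**Figure D1:**
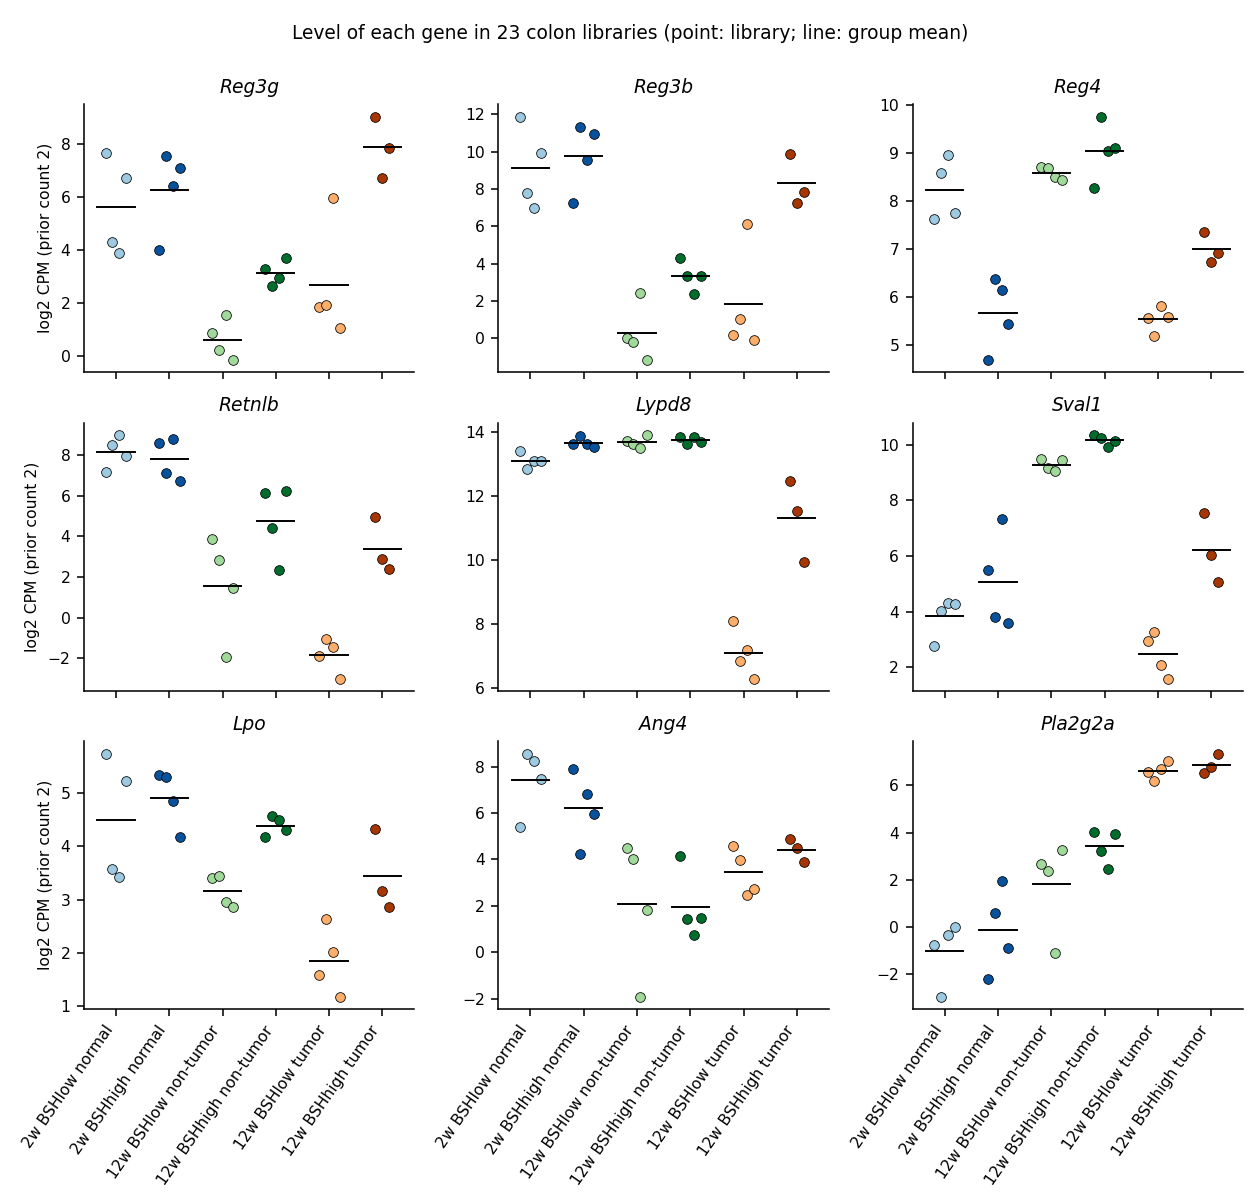
Level of each of the 9 genes in all 23 libraries, as log2 CPM with a prior count of 2, by group, each point being 1 library and each line the mean of the plotted log2 values of a group. Lypd8 lay at 7269 CPM or more in all non-tumor and normal libraries and between 79.0 and 272 CPM in the 4 BSHlow tumors, and the point of BSHlow tumor 3 stands above its group in the panels of Reg3g and Reg3b.

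The first question is how BSHhigh and BSHlow tumors differed. Levels of 7 of the 9 genes did not overlap between the 3 BSHhigh and the 4 BSHlow tumors and were higher in BSHhigh, as was the case in 1 direction or the other for 11.8% of the 15325 genes tested. By the edgeR quasi-likelihood test, 4 of the 9 (Reg4, Retnlb, Lypd8 and Sval1) were called higher, called meaning an adjusted p under 0.05 together with a change of more than 1 on the log2 scale, and none was called lower. Of all genes tested 0.463% were called higher and 0.0131% lower. The median log2 fold change was 3.95 over the 9 genes and -0.03 over all genes.

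Among the lectins, Reg3g stood at 3.52, 3.64, 62.5 and 1.94 CPM in BSHlow tumors 1 to 4 and at 524, 105 and 233 CPM in BSHhigh tumors a to c. Reg3b stood at 1.01, 1.92, 71.1 and 0.822 CPM in the BSHlow tumors and at 928, 155 and 231 CPM in the BSHhigh tumors. In both genes BSHlow tumor 3 lay far above the other 3 BSHlow tumors and still below every BSHhigh tumor. The log2 fold change of BSHhigh over BSHlow was 3.99 ± 1.24 (SE, adjusted p = 0.221) for Reg3g and 4.54 ± 1.58 (adjusted p = 0.274) for Reg3b, and neither was called. Without BSHlow tumor 3 the values were 6.53 and 8.42, both with an adjusted p of 0.0643, and without BSHhigh tumor a they were 3.23 (adjusted p = 0.670) and 3.36 (adjusted p = 0.803). BSHlow tumor 3 was the highest of its group in the marker sums of T cells (17.2 CPM, the lowest being 4.69), B and plasma cells (30.3 against at most 15.8 CPM), smooth muscle (253 against at most 206 CPM), pancreas (55.5 against at most 52.1 CPM) and epithelium (8596 against at most 8407 CPM). Only 1 of the 7 pancreas markers had enough counts to be tested between BSHhigh and BSHlow tumors. The neutrophil sum of BSHlow tumor 3, 88.6 CPM, lay inside the range of the other BSHlow tumors (45.3 to 369 CPM). The part of these cell types in its Reg3g and Reg3b levels was not tested.

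Reg4 had the smallest ratio of highest to lowest level of the 9 genes within both tumor groups. It stood at 47.4, 36.3, 56.2 and 48.0 CPM in the BSHlow tumors (47.0 ± 8.16, SD, n = 4) and at 164, 106 and 121 CPM in the BSHhigh tumors (130.0 ± 30.2, n = 3), a log2 fold change of 1.44 ± 0.19 (adjusted p = 0.0363). Each BSHhigh tumor lay above the highest BSHlow tumor.

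Of the goblet cell and colonocyte products, Retnlb had 3, 7, 5 and 0 counts in the BSHlow tumors and 588, 162 and 107 counts in the BSHhigh tumors, or at most 0.354 CPM against 30.5, 7.16 and 5.06 CPM (log2 fold change 6.21 ± 0.89, adjusted p = 0.0406). The BSHlow side of this ratio thus rests on a handful of reads. Lypd8 stood at 272, 114, 146 and 79.0 CPM in the BSHlow tumors and at 5705, 2938 and 978 CPM in the BSHhigh tumors (4.36 ± 0.65, adjusted p = 0.0421). Sval1 stood at 7.62, 9.65, 4.16 and 2.90 CPM and at 186, 66.1 and 33.8 CPM (3.95 ± 0.63, adjusted p = 0.0481). In all 3 genes BSHhigh tumor a was highest and c lowest, and this was also the order of the goblet cell marker sums (3847, 1459 and 736 CPM) and of the absorptive colonocyte sums (824, 268 and 170 CPM). Both sums were at most 267 CPM in every BSHlow tumor. One of 9 goblet cell and 2 of 8 absorptive markers were called higher in this comparison. Sums of B and plasma cell markers, at 1.79 to 30.3 CPM in BSHlow and 458 to 726 CPM in BSHhigh tumors, did not overlap either. The same held for T cells (4.69 to 17.2 and 28.0 to 38.7 CPM) and for Paneth cells and small intestine (448 to 599 and 794 to 1173 CPM). Pancreas sums (48.1 to 55.5 and 59.6 to 85.0 CPM) were also apart, but only 1 of the 7 pancreas markers could be tested. The epithelial sums overlapped (4895 to 8596 and 6202 to 8754 CPM). The part of these cell types in the levels of the 9 genes was not tested.

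Lpo, the peroxidase, stood at 2.89, 6.06, 3.92 and 2.13 CPM in the BSHlow and at 19.8, 8.80 and 7.14 CPM in the BSHhigh tumors, apart but not called (log2 fold change 1.65 ± 0.44, adjusted p = 0.154). Ang4 stood at 24.0, 15.8, 5.48 and 6.53 CPM against 29.4, 22.6 and 14.6 CPM, and Pla2g2a at 93.8, 72.2, 103 and 133 CPM against 92.2, 110 and 164 CPM. In these 2 genes the groups overlapped, and the log2 fold changes were 0.74 ± 0.52 (adjusted p = 0.602) and 0.26 ± 0.25 (adjusted p = 0.721). BSHhigh tumor a was the highest of its group in 8 of the 9 genes and the lowest in Pla2g2a.

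All 4 calls were lost when BSHlow tumor 1, 2, 3 or 4 or BSHhigh tumor a or b was left out, with adjusted p-values of 0.0721 to 0.124, and all 4 were kept without c. Log2 fold changes stayed positive in each of these fits. Without BSHhigh tumor a they were 1.25 for Reg4, 5.0 for Retnlb, 3.65 for Lypd8 and 3.02 for Sval1. DESeq2 called Lpo in addition (adjusted p = 0.0114), and limma-voom called only Reg4 and Lypd8 of the 9. With all 23 libraries in 1 fit, Reg3g (adjusted p = 0.0260) and Lpo (adjusted p = 0.0486) were called in addition to the 4, and with a filter of CPM over 1 in 3 libraries Sval1 was not called (adjusted p = 0.0503).

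**Figure D2:**
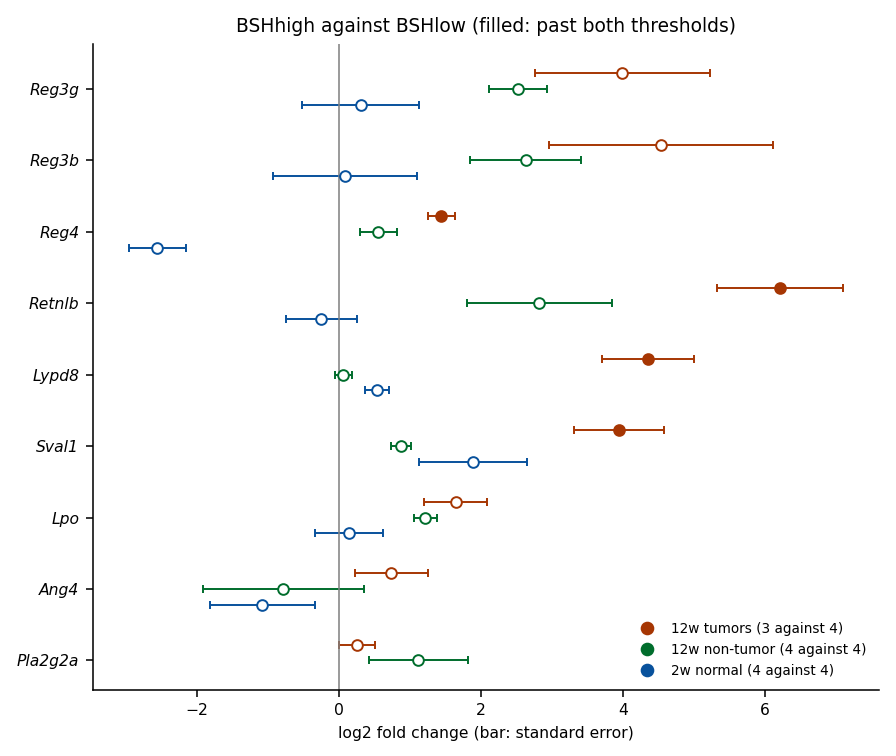
Log2 fold change of BSHhigh over BSHlow for each of the 9 genes, with its standard error, in tumors, in non-tumor colon at 12 weeks and in normal colon at 2 weeks, where Pla2g2a was not tested. Filled points were called and open points were not. In tumors the values run from 0.26 (Pla2g2a) to 6.21 (Retnlb), in non-tumor colon from -0.78 (Ang4) to 2.82 (Retnlb), and at 2 weeks Reg4 stands lowest at -2.56.

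In non-tumor colon at 12 weeks, which asks whether the same genes differed beside the tumors, none of the 9 genes was called by edgeR among 14933 tested (0.00% of all genes were called, and 1377 had an unadjusted p under 0.05). Levels of 3 genes, Reg3g, Sval1 and Lpo, did not overlap and were higher in BSHhigh, which was so in either direction for 5.59% of all genes. Reg3g stood at 1.72, 1.04, 2.78 and 0.777 CPM in BSHlow and at 9.74, 6.20, 7.61 and 12.7 CPM in BSHhigh libraries 1 to 4 (log2 fold change 2.53 ± 0.41, adjusted p = 0.208). Sval1 stood at 723, 570, 529 and 705 CPM against 1305, 1222, 964 and 1123 CPM (0.87 ± 0.14, adjusted p = 0.208). Lpo stood at 10.5, 10.7, 7.60 and 7.19 CPM against 17.9, 23.6, 22.5 and 19.7 CPM (1.22 ± 0.17, adjusted p = 0.181), and it ranked 3 of all genes by p. DESeq2 called Reg3g (adjusted p = 1.78e-06), Lpo (1.79e-07) and Reg3b (0.0275), whereas limma-voom called none of the 9.

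Reg3b in the same tissue stood at 0.897, 0.752, 5.29 and 0.324 CPM in BSHlow and at 19.5, 10.1, 5.15 and 9.95 CPM in BSHhigh (log2 fold change 2.63 ± 0.79, adjusted p = 0.407). BSHlow library 3 lay just above BSHhigh library 3, and this pair alone made the groups overlap. Retnlb spread widely on both sides, with 14.5, 7.12, 0.136 and 2.65 CPM against 70.6, 21, 5.03 and 74.2 CPM (2.82 ± 1.02, adjusted p = 0.486). Ang4 spread as widely, with 22.5, 16.3, 0.136 and 3.37 CPM against 17.6, 2.54, 1.53 and 2.67 CPM. In BSHlow library 3 the counts of Retnlb and of Ang4 were 2 each, the lowest of both genes in non-tumor colon. Lypd8 differed little, at 13186 ± 1596 CPM in BSHlow and 13756 ± 1028 CPM in BSHhigh (SD, n = 4 each, log2 fold change 0.07 ± 0.12, adjusted p = 0.906). Reg4 (log2 fold change 0.55, adjusted p = 0.575) and Pla2g2a (1.12, adjusted p = 0.680) overlapped between the groups. Goblet cell marker sums did not overlap, at 10874 to 14083 CPM in BSHlow and 14999 to 26841 CPM in BSHhigh non-tumor colon, and all 9 goblet cell markers had a positive log2 fold change (median 0.56), none of them called. Neutrophil marker sums overlapped, at 1.72 to 15.1 CPM in BSHlow and 8.10 to 131 CPM in BSHhigh. The part of both in these levels was not tested.

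At 2 weeks, before tumors were sampled, edgeR called none of the 8 genes that could be tested among 13752 (1 gene of all, 0.00727%, was called higher and 0.00% lower, and 935 had an unadjusted p under 0.05). Pla2g2a had at most 50 counts in any 2-week library and was not tested. Reg4 and Lypd8 did not overlap, as held for 3.54% of all genes, and they went in opposite directions. Reg4 stood at 198, 385, 494 and 214 CPM in BSHlow and at 25.7, 83.0, 71.0 and 43.4 CPM in BSHhigh (log2 fold change -2.56 ± 0.40, adjusted p = 0.234). It ranked 4 of all genes by p and was called lower by DESeq2 (adjusted p = 8.82e-05) and by edgeR without the filter on low counts (0.0160), with all 23 libraries in 1 fit (0.00719) or without BSHlow library 4 (0.0432). Lypd8 stood at 10778, 7269, 8643 and 8761 CPM in BSHlow and at 12561, 14894, 12595 and 11864 CPM in BSHhigh (0.54 ± 0.16, adjusted p = 0.651). Epithelial marker sums did not overlap either, at 13659 to 14691 CPM in BSHlow and 14842 to 18685 CPM in BSHhigh, and their part in these levels was not tested.

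Reg3g and Reg3b were abundant and scattered at 2 weeks. Reg3b stood at 3791, 223, 125 and 969 CPM in BSHlow and at 152, 2547, 763 and 1961 CPM in BSHhigh, and Reg3g at 200, 19.5, 14.6 and 105 CPM and at 15.9, 186, 84.3 and 136 CPM. Libraries of 1 group differed by up to 30.3-fold in Reg3b, more than the groups did (log2 fold change 0.08 ± 1.01 for Reg3b and 0.31 ± 0.82 for Reg3g). Sval1 was at 6.70 to 19.8 CPM in BSHlow and at 45.6, 14, 161 and 11.9 CPM in BSHhigh (1.89 ± 0.76, adjusted p = 0.711), and without BSHhigh library 3 the log2 fold change was 0.60. Ang4 was at 41.8, 379, 303 and 178 CPM against 237, 18.8, 114 and 63.0 CPM (-1.08 ± 0.74, adjusted p = 0.851). The libraries with the highest Reg3b, BSHlow 1 and BSHhigh 2, had the lowest Ang4 of their groups. Retnlb (-0.24 ± 0.50) and Lpo (0.15 ± 0.47) overlapped between the groups.

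Tumors were next set against non-tumor colon within each strain. In BSHlow mice, 8 of the 9 genes could be tested among 15179. Reg3g and Pla2g2a were called higher in tumors (background 16.1% of genes) and Reg4, Lypd8, Sval1 and Lpo lower (17.6%), and 5 genes did not overlap (58.0%). Lypd8 went from a mean of 13186 CPM in non-tumor colon to 153 CPM in tumors (log2 fold change -6.42 ± 0.44, adjusted p = 4.93e-06) and Sval1 from 632 to 6.08 CPM (-6.70 ± 0.41, adjusted p = 2.91e-06). Reg4 went from 384 to 47.0 CPM (-3.02 ± 0.15, adjusted p = 1.10e-06) and Lpo from 8.99 to 3.75 CPM (-1.26 ± 0.32, adjusted p = 0.00752). Pla2g2a went the other way, from 6.28, 5.09, 0.339 and 9.52 CPM to 93.8, 72.2, 103 and 133 CPM (4.24 ± 0.63, adjusted p = 0.00037). The call of Reg3g (3.49 ± 1.17, adjusted p = 0.0280) rested on BSHlow tumor 3, without which the log2 fold change was 0.94 (adjusted p = 0.130), and it was also lost without non-tumor library 1, 2 or 4 (adjusted p of 0.0618 to 0.0681). Reg3b (3.35 ± 1.58, adjusted p = 0.0928) turned to -0.54 without tumor 3. Retnlb was too low to test, with at most 7 counts in a tumor, and Ang4 overlapped (0.32 ± 0.97, adjusted p = 0.789).

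In BSHhigh mice all 9 genes were tested among 15653. Reg3g, Reg3b and Pla2g2a were called higher in tumors (14.6% of genes) and Reg4, Lypd8 and Sval1 lower (15%), and 6 genes did not overlap (62.1%). Reg3g went from a mean of 9.06 CPM to 287 CPM (log2 fold change 4.98 ± 0.54, adjusted p = 0.000168) and Reg3b from 11.2 to 438 CPM (5.28 ± 0.72, adjusted p = 0.000474), and both calls held with any 1 library left out. Without BSHhigh tumor a the values were 4.22 and 4.11. Pla2g2a went from 11.5 to 122 CPM (3.40 ± 0.37, adjusted p = 0.000182). Lypd8 went from 13756 to 3207 CPM (-2.11 ± 0.51, adjusted p = 0.00768), Sval1 from 1153 to 95.5 CPM (-3.60 ± 0.56, adjusted p = 0.000862) and Reg4 from 561 to 130.0 CPM (-2.12 ± 0.34, adjusted p = 0.00101). Without tumor a the falls of Lypd8 and Sval1 were larger, at -2.81 and -4.53. Lpo (-0.82 ± 0.33, adjusted p = 0.0604) and Retnlb (-1.60 ± 0.94, adjusted p = 0.174) were called lower only without tumor a (-1.39, adjusted p = 0.000467, and -2.80, adjusted p = 0.0491). Ang4 (1.85 ± 0.77, adjusted p = 0.0683) was called higher without BSHhigh non-tumor library 1 (3.29, adjusted p = 0.000405).

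In both strains all 9 goblet cell markers were called lower in tumors, as were all 7 smooth muscle and all 6 B and plasma cell markers. The same held for 8 of 8 absorptive markers in BSHlow and 6 of 8 in BSHhigh mice. Epithelial sums were lower as well, at 4895 to 8754 CPM in tumors and 10132 to 13381 CPM in non-tumor colon. Other markers were higher in tumors, in the direction of Pla2g2a, Reg3g and Reg3b. The sums of Paneth cell and small intestinal markers were 448 to 1173 CPM in tumors and 25.4 to 85.4 CPM in non-tumor colon, with 5 of 7 tested markers called higher and 2 lower in BSHlow and 5 of 8 higher and 2 lower in BSHhigh mice. Of the neutrophil markers, 5 of 5 tested were called higher in BSHlow and 3 of 6 in BSHhigh mice. The part of these cell types in the levels of the 9 genes was not tested.

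**Figure D3:**
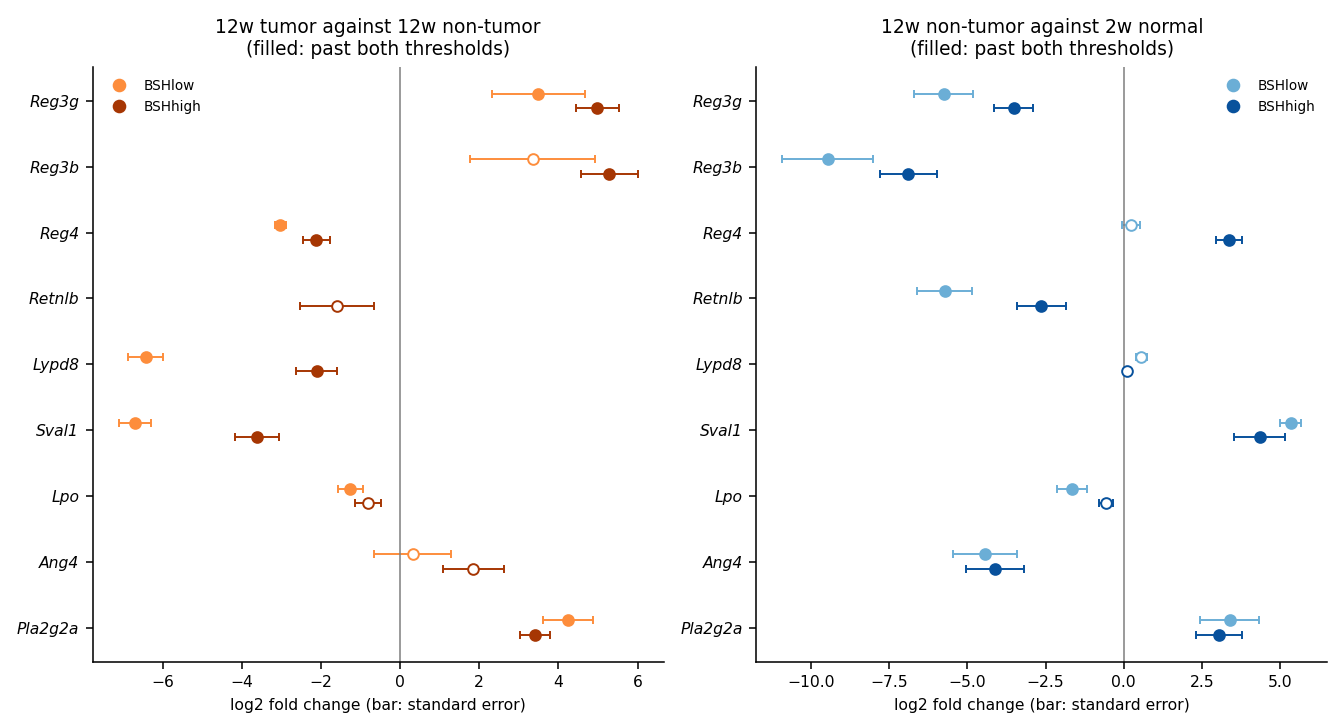
Log2 fold changes of the 9 genes, with standard errors, of tumor over non-tumor colon and of 12-week non-tumor over 2-week normal colon, for BSHlow and BSHhigh mice. Filled points were called and open points were not, and Retnlb has no BSHlow point in the tumor panel because it was not tested there. Lypd8 fell by 6.42 in BSHlow and by 2.11 in BSHhigh tumors on the log2 scale, and Sval1 rose by 5.33 and 4.34 from 2 to 12 weeks.

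Whether the BSHhigh minus BSHlow difference itself differed between tumors and non-tumor colon was tested in 1 model over the 15 libraries of 12 weeks and 16454 genes. Lypd8 (4.31 ± 0.64, adjusted p = 0.00810) and Sval1 (3.08 ± 0.63, adjusted p = 0.0303) were called, both with the larger difference in tumors, as were 0.972% of all genes in this direction and 0.00608% in the other. Lypd8 kept its call with each of the 15 libraries left out in turn (adjusted p of 0.000205 to 0.0279), and its value was 3.62 without BSHhigh tumor a. With limma-voom neither call was kept (adjusted p = 0.0820 for Lypd8 and 0.174 for Sval1). Sval1 lost its call in 10 of 15, namely without BSHlow non-tumor 1, 3 or 4, BSHhigh non-tumor 1, 2, 3 or 4, BSHlow tumor 3 or 4, or BSHhigh tumor a, with adjusted p-values of up to 0.0758. The other 7 genes were not called: Reg3g 1.46 ± 1.44 (adjusted p = 0.849), Reg3b 1.90 ± 1.85 (0.847), Reg4 0.90 ± 0.35 (0.387), Retnlb 3.38 ± 1.69 (0.565), Lpo 0.43 ± 0.47 (0.874), Ang4 1.52 ± 1.37 (0.830) and Pla2g2a -0.84 ± 0.75 (0.828). Without BSHlow tumor 3, Reg3g (4.03, adjusted p = 0.0346) and Reg3b (5.81, adjusted p = 0.0486) were called as well. Of the markers, 5 of 8 absorptive and 3 of 9 goblet cell genes were called in the same direction, and their part in the values of Lypd8 and Sval1 was not tested.

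From 2 weeks to 12 weeks some of the 9 genes fell and others rose. In BSHlow mice 5 genes were called lower in non-tumor colon at 12 weeks than in normal colon at 2 weeks (Reg3g, Reg3b, Retnlb, Lpo and Ang4; 7.59% of 14555 genes) and 2 higher (Sval1 and Pla2g2a; 15.1%), and 6 did not overlap (40.3%). In BSHhigh mice 4 were lower (Reg3g, Reg3b, Retnlb and Ang4; 7.34% of 14638 genes) and 3 higher (Reg4, Sval1 and Pla2g2a; 15.9%), and 7 did not overlap (48.9%). Age, time on the diet, time with the bacterium and the piece of colon sampled cannot be told apart in this comparison.

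Reg3b had the largest difference of the 9, from a mean of 1277 CPM at 2 weeks to 1.82 CPM at 12 weeks in BSHlow (log2 fold change -9.46 ± 1.45, adjusted p = 0.000822) and from 1356 to 11.2 CPM in BSHhigh mice (-6.88 ± 0.90, adjusted p = 0.00028). Reg3g went from 84.7 to 1.58 CPM (-5.76 ± 0.94, adjusted p = 0.00115) and from 105 to 9.06 CPM (-3.51 ± 0.63, adjusted p = 0.00144). In all 8 libraries of 2 weeks each gene was above all 8 non-tumor libraries of 12 weeks. In BSHlow mice the values were -7.94 and -4.90 without 2-week library 1, the highest in both genes, and that of Reg3b was -10.91 without non-tumor library 3. Retnlb fell by 5.72 ± 0.87 on the log2 scale in BSHlow mice (adjusted p = 0.000792), to 0.136 CPM in the lowest library (-6.56 without non-tumor library 1), and by 2.64 ± 0.78 in BSHhigh mice (adjusted p = 0.0185). Ang4 fell by 4.44 ± 1.02 (adjusted p = 0.00679) and by 4.11 ± 0.93 (adjusted p = 0.00522), and its log2 fold change was -5.09 without BSHlow non-tumor library 1, -5.6 without BSHhigh non-tumor library 1 and -3.38 without BSHhigh 2-week library 1. Lpo fell by 1.66 ± 0.48 in BSHlow (adjusted p = 0.0207), a call lost without non-tumor library 3 or 2-week library 1 or 4 (adjusted p of 0.0505 to 0.0602), and by 0.56 ± 0.23 in BSHhigh mice (adjusted p = 0.0667, not called).

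Sval1 rose from a mean of 15.5 CPM at 2 weeks to 632 CPM at 12 weeks in BSHlow (5.33 ± 0.34, adjusted p = 8.78e-06) and from 58.2 to 1153 CPM in BSHhigh mice (4.34 ± 0.80, adjusted p = 0.00174). All 8 non-tumor libraries of 12 weeks (529 CPM or more) lay above all 8 libraries of 2 weeks (161 CPM or less). Without 2-week BSHhigh library 3, the highest in both genes, the BSHhigh values were 5.62 for Sval1 and 4.18 for Pla2g2a. Pla2g2a rose from 0.495 to 5.31 CPM (3.38 ± 0.93, adjusted p = 0.0159) and from 1.40 to 11.5 CPM (3.04 ± 0.74, adjusted p = 0.00736), and its partner on the opposite strand, Pla2g5, was called higher too (3.40 and 2.70). Reg4 was called higher in BSHhigh mice, from 55.8 to 561 CPM (3.37 ± 0.41, adjusted p = 0.000198), and not in BSHlow mice, from 323 to 384 CPM (0.23 ± 0.28, adjusted p = 0.531). Lypd8 was 1.48-fold higher at 12 weeks in BSHlow mice (0.56 ± 0.18, adjusted p = 0.0275), below the fold required for a call, and did not pass in BSHhigh mice (0.12 ± 0.12, adjusted p = 0.429). Smooth muscle markers summed to 7.48 to 211 CPM at 2 weeks and 1574 to 8879 CPM in non-tumor colon at 12 weeks, and macrophage markers to 15.7 to 46.8 and 60.2 to 230 CPM. Pancreas markers (43.5 to 133 and 329 to 772 CPM) and neutrophil markers (0.240 to 1.46 and 1.72 to 131 CPM) were also higher at 12 weeks without overlap. Only 1 of 7 pancreas markers could be tested in either strain. Of 6 neutrophil markers, 1 could be tested in BSHlow and 3 in BSHhigh mice. Paneth cell and small intestinal marker sums were lower at 12 weeks, in the direction of Reg3b, Reg3g, Ang4 and Retnlb (660 to 1946 CPM at 2 weeks and 25.4 to 85.4 CPM at 12 weeks). Of these markers, 3 of 5 tested were called lower and 1 higher in BSHlow, and 2 of 6 lower in BSHhigh mice. Absorptive colonocyte sums (13977 to 25936 and 2076 to 5045 CPM) and epithelial sums (13659 to 18685 and 10132 to 13381 CPM) were lower too. Of 8 absorptive markers 3 were called lower in each strain, whereas 5 in BSHlow and 1 in BSHhigh mice had a positive log2 fold change. No epithelial marker was called. Sums of goblet, T, and B and plasma cell markers overlapped over both strains. In BSHhigh mice alone the B and plasma cell sums did not overlap (302 to 1208 and 2034 to 8849 CPM). Of 6 B and plasma cell markers, 6 were called higher at 12 weeks in BSHlow and 4 in BSHhigh mice. Of 9 goblet cell markers, 1 was called lower in BSHlow and 4 higher in BSHhigh mice. Of 6 T cell markers, 1 was called higher in BSHlow and 2 lower in BSHhigh mice. The part of these differences in the levels of the 9 genes was not tested.

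Whether the BSH difference changed between 2 and 12 weeks was tested in 1 model over 16 libraries and 15532 genes. EdgeR called no gene (0.00% of all), with 1135 genes at an unadjusted p under 0.05. Reg4 ranked 3 by p at 3.13 ± 0.52 (adjusted p = 0.113), its BSHhigh libraries being the lower ones at 2 weeks and the higher ones in 3 of 4 at 12 weeks. DESeq2 called Reg4 (adjusted p = 3.63e-06), as did edgeR with all 23 libraries in 1 fit (0.0363). The other values ran from -1.0 ± 0.84 (Sval1) to 3.08 ± 1.17 (Retnlb), with adjusted p-values of 0.596 and above.

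Reg3g and Reg3b moved together from library to library. Their deviations from the group means of log2 CPM correlated with r = 0.96 over the 23 libraries, the highest of the 36 pairs of the 9 genes, which is given as a description, the 2 genes sharing libraries and sequence. Their ratio was not constant. The count of Reg3b was 8.55 to 19.0 times that of Reg3g in the 8 libraries of 2 weeks, with medians of 10.3 in BSHlow and 11.6 in BSHhigh mice. At 12 weeks it was 0.288 to 2.00 times in all 15 libraries, with medians of 0.622 and 1.21 in non-tumor colon and 0.476 and 1.48 in tumors. The ranges of the early and late libraries did not overlap.

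**Figure D4:**
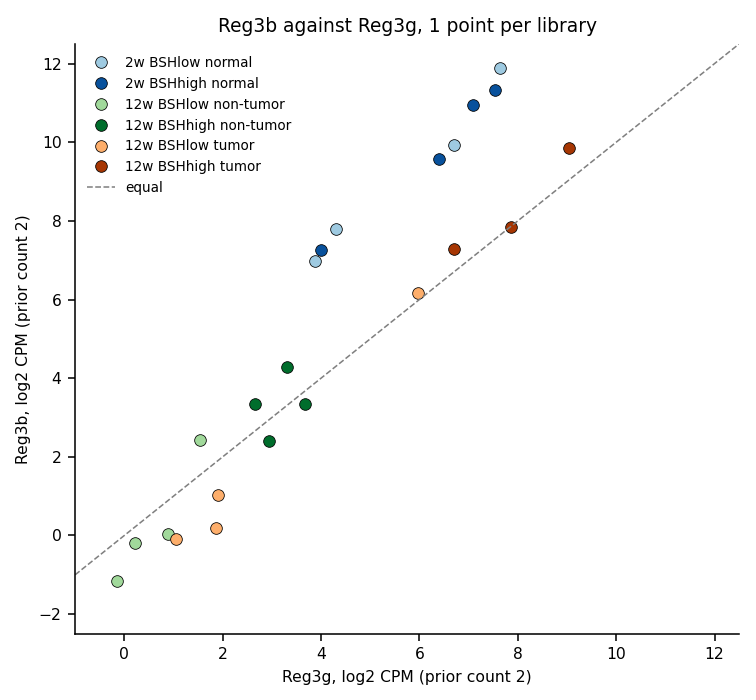
Level of Reg3b against Reg3g in the 23 libraries, both axes in log2 CPM with a prior count of 2, coloured by group, with a dashed line where both are equal. The 8 libraries of 2 weeks lie along a line above that of the 15 libraries of 12 weeks, with Reg3b to Reg3g ratios of at least 8.55 and at most 2.00.

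The next pair was Retnlb and Ang4 (r = 0.82), and the lowest value was that of Reg3b and Ang4 (r = -0.49). Among 14386 other genes compared in the same way over 6 groups, those most like each member were Acsbg1 and Tkt for Reg3g (r = 0.79 each), Tmem51 and Tkt for Reg3b (0.74 each), Rps28 for Reg4 (0.81), and Ddah1 and Plet1 for Retnlb (0.80 each). For Lypd8 they were Cdhr5 (0.95) and Nlrp1b (0.94), for Sval1 B3gnt7 (0.88) and St3gal6 (0.87), and for Lpo Cep164 (0.82) and Zc3hc1 (0.77). For Ang4 they were Pik3r5 (0.82) and Crisp3 (0.75), and for Pla2g2a Ifitm1 (0.85) and Tbkbp1 (0.79). Of the 9 genes, Lypd8 had the highest such values. By Spearman rank correlation they were 0.83 (Cdhr5) and 0.70 (Nlrp1b), below the 0.86 of Reg4 and Rps28. Each r given is among the largest of 14386 genes over 23 libraries, and what chance would reach was not tested.

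Of the other Reg genes, Reg1 was at 2.80, 2.17 and 6.71 CPM in BSHhigh tumors and at most 0.101 CPM in 3 BSHlow tumors, whereas BSHlow tumor 3, which also stood apart in Reg3g and Reg3b, had 5.81 CPM (log2 fold change 1.38, adjusted p = 0.745). Reg1 was listed at 0 in all 8 non-tumor libraries. Reg3a was listed at 0 in non-tumor colon, was at most 0.378 CPM in tumors and stood at 0.283 to 8.81 CPM at 2 weeks (log2 fold change of BSHhigh over BSHlow 0.16). Reg2 was at most 0.286 CPM and Reg3d was listed at 0 throughout.

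Genes upstream of the Reg lectins were read from a list of 36 cytokines, receptors and regulators. None of the 28 tested in tumors was called between BSHhigh and BSHlow by edgeR. Il22, the cytokine that drives Reg3 genes, was at most 1.33 CPM and Il13 at most 0.189 CPM in any library, and Ifng at most 0.570 CPM, all too low to be tested. Il22ra1, the receptor chain of epithelium, was at 4.55 to 6.97 CPM in BSHlow and 8.42 to 19.2 CPM in BSHhigh tumors (log2 fold change 1.19, adjusted p = 0.112) and fell in tumors against non-tumor colon in both strains, by 3.18 (adjusted p = 2.88e-06) and 1.95 (adjusted p = 0.000318). It did not pass in non-tumor colon (-0.02) or at 2 weeks (0.07). Il17a was at 0.145 to 1.09 CPM in BSHlow and at 4.40, 10.9 and 5.01 CPM in BSHhigh tumors (3.45, adjusted p = 0.0687) and was called higher in BSHhigh tumors than in non-tumor colon (5.35, adjusted p = 0.000418). Cdx2, an intestinal transcription factor whose promoter drives the Cre, fell from 312 to 427 CPM at 2 weeks to 6.31 to 59.7 CPM in non-tumor colon at 12 weeks (-4.63 in BSHlow mice). In tumors Cdx2 stood at 0.253 to 1.94 CPM in BSHlow and at 27.6, 3.18 and 2.41 CPM in BSHhigh tumors a to c. The tumor groups thus did not overlap in Cdx2, as was so for 11.8% of all genes tested.

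Among 50 other genes of antibacterial defense, not all of them secreted, 34 were tested in tumors. Of these, 6 were called higher in BSHhigh (0.463% of all genes) and none lower (0.0131%). These were Zg16 (log2 fold change 7.78), a goblet cell lectin, Ccl28 (4.13), an epithelial chemokine with antimicrobial activity, Pigr (2.51), the receptor that carries IgA to the lumen, and the oxidant enzymes Nos2 (2.60), Duox2 (2.39) and its maturation factor Duoxa2 (2.53). All 34 had a positive fold change, with a median of 0.91. In non-tumor colon 0 of 31 and at 2 weeks 0 of 28 were called, and of the upstream genes 0 of 26 and 0 of 23. In the test of a difference between tissues, 5 of 37 other antibacterial genes were called with the larger difference in tumors, against 0.972% of all genes. These were Zg16 (7.18), Dmbt1 (4.74), Ccl28 (3.92), Mptx1 (3.75) and Pigr (2.38). None of 29 upstream genes was called. In the test of a difference between times none of 34 and none of 26 were called.

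Against non-tumor colon, 10 of 33 other antibacterial genes were called higher and 17 lower in BSHlow tumors, and 11 and 15 of 36 in BSHhigh tumors. Zg16 fell by 10.64 in BSHlow and Mptx1, a colonic pentraxin, fell by 10.28 in BSHlow and by 6.54 in BSHhigh tumors on the log2 scale, whereas Mptx2, its relative of the small intestine, rose by 6.55 and 10.10. The Paneth cell defensins Defa30 (6.79 in BSHlow) and Defa17 (6.22 in BSHhigh) rose as well, and Ccl28 fell by 7.10 in BSHlow tumors. Il22ra2, a soluble decoy receptor of interleukin-22, fell as well (log2 fold changes -8.34 and -6.77), being listed at 0 in some tumors. Of the upstream genes 12 of 28 were called higher and 9 lower in BSHlow, and 8 and 7 of 28 in BSHhigh tumors, beside the same shares of all genes.

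From 2 to 12 weeks, 13 of 28 other antibacterial genes were called higher and 6 lower in BSHlow mice (15.1% and 7.59% of all genes). In BSHhigh mice the counts were 18 and 6 of 33 (15.9% and 7.34% of all genes). Slpi, a secreted protease inhibitor, rose by 4.45 and 5.13, and Nos2 rose by 3.69 in BSHlow mice, while Itln1, a lectin of Paneth and goblet cells, fell by 3.79. The neutrophil proteins S100a8 (7.20) and S100a9 (6.52), Lcn2 (4.19) and the cytokine Il1b (5.52) rose in BSHhigh mice, in which Reg3g and Reg3b fell. The defensin Defb37 was at 1.04 to 12.3 CPM in BSHlow mice at 2 weeks and listed at 0 in the 4 BSHlow libraries of 12 weeks, and it fell by 7.23 in BSHhigh mice. Upstream genes were called higher in 6 and lower in 4 of 25 in BSHlow, and in 6 and 3 of 25 in BSHhigh mice, beside the same shares of all genes.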

How the data were processed

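Colon RNA of 23 samples in 6 groups was sequenced by the authors, and the deposited table holds RSEM expected counts per gene, made by the authors from reads trimmed with Cutadapt and aligned with STAR to mm10, with Picard among the tools. Tool versions are not given in the sources used here. The labels name a stranded total RNA kit, the study's methods a stranded mRNA kit. Of the values 4.24% were not whole, and they were rounded. One row holding text was left out, and 26837 genes were 0 in every library.

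The 9 genes and all gene lists were chosen with earlier results of these data known. Each comparison was fitted over all genes with the edgeR (4.0.16, R 4.3.3) quasi-likelihood test, TMM scaling and filterByExpr, in the libraries compared, with Benjamini-Hochberg adjustment over all genes tested. A gene was called at an adjusted p under 0.05 with a log2 fold change above 1 or below -1. The SE of a log2 fold change was derived from its F statistic. All 9 members were described in every comparison. From the lists, Il22, Il22ra1, Il17a, Il13, Ifng and every Reg gene were named, with up to 6 called genes of largest fold change per comparison, and for likeness the 2 genes with the highest r, of which 1 is not reported here. Alternatives were DESeq2 (1.42.0), limma-voom (limma 3.58.1), RLE scaling, no filter, CPM over 1 in 3 libraries, all 23 libraries in 1 fit, a replicate block and each library left out in turn. Figures were drawn with matplotlib (3.10.9) in Python 3.11.15.

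In simulated data for tumors (15325 genes, 200 changed 8-fold), edgeR recovered 183 with 7 false calls and DESeq2 185 with 40. Of 200 genes changed 2-fold they recovered 52 with 2 false calls and 77 with 24. For non-tumor colon (14933 genes) the 8-fold figures were 178 with 4 for edgeR and 184 with 9 for DESeq2. The simulated counts varied independently from gene to gene, whereas genes such as Reg3g and Reg3b moved together in these libraries. The figures therefore need not hold for the calls reported here.

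Replicate libraries differed beyond sampling noise in all 33 pairs (chi-square per degree of freedom 17.7 to 138), so none was counted as a repeat.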

Additional observations from a re-analysis of the deposited data

Results flagged for a closer look

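In 45 groups of 4 libraries, 4 values stood apart from the other 3 of their group by Dixon's criterion. Chance reaches it in about 1 of 20 groups if values are normally distributed, which was not tested for these CPM. Values of Reg3g and Reg3b in the same library are not independent, as both genes moved together. Reg3g was at 62.5 CPM in BSHlow tumor 3, against 1.94 to 3.64 CPM in the other BSHlow tumors. Reg3b was at 71.1 CPM in the same library, against 0.822 to 1.92 CPM. Reg3b was at 5.29 CPM in BSHlow non-tumor library 3, against 0.324 to 0.897 CPM. Ang4 was at 17.6 CPM in BSHhigh non-tumor library 1, against 1.53 to 2.67 CPM. The BSHhigh minus BSHlow difference was larger in tumors than in non-tumor colon for Lypd8 (by 4.31 on the log2 scale) and Sval1 (by 3.08), by the edgeR test of the difference itself.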

How the results depend on the processing

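In tumors, 4 of the 9 genes were called, and 6 with all 23 libraries in 1 fit, 5 with DESeq2, 3 with the CPM filter, 2 with limma-voom and 0 to 4 with 1 library left out. In non-tumor colon 0 were called, and 3 with DESeq2. At 2 weeks 0 were called, and 1 with DESeq2, without the filter, with all 23 libraries or with the replicate block, and 0 to 1 with 1 library left out. Between tissues 2 were called, and 0 with limma-voom, 1 with all 23 libraries and 1 to 3 with 1 library left out. Between times 0 were called, and 1 with DESeq2 or all 23 libraries. Over the log2 fold changes of single genes, 1165 values kept their call and direction, 53 lost and 21 gained a call, and 27 changed sign. The log2 fold changes that changed sign with 1 library left out were those of Pla2g2a in tumors (-0.023 to 0.43), of Reg3g (-0.10 to 1.16), Reg3b (-0.40 to 1.60), Retnlb (-0.59 to 0.085) and Lpo (-0.12 to 0.63) at 2 weeks, of Reg3b (-0.54 to 4.81) and Ang4 (-0.19 to 0.99) between BSHlow tumor and non-tumor colon, of Lpo between tissues (-0.13 to 0.77), and of Sval1 (-1.34 to 0.29), Ang4 (-1.15 to 1.06) and Pla2g2a (-0.78 to 0.81) between times, the last also with limma-voom (0.46). None of these was called in the main edgeR fits, and the cause was not tested. Reg3b between BSHlow tumor and non-tumor colon was called in 2 of its 15 alternatives.

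Over all genes, those called higher and lower in tumors were 71 and 2 with edgeR, 489 and 45 with DESeq2, 40 and 1 with limma-voom, 308 and 12 without the filter, and 566 and 12 with all 23 libraries. In non-tumor colon they were 0 and 0, and 45 and 14 with DESeq2. At 2 weeks they were 1 and 0, and 19 and 8 with DESeq2. Between tissues they were 160 and 1, and 379 and 8 with DESeq2, 0 with limma-voom and 260 and 3 with all 23 libraries. Between times they were 0 and 0, and 18 and 8 with DESeq2. Scaling by library size alone moved the median of all genes by 0.34 and 0.30 between tumor and non-tumor colon and by 0.23 and 0.31 between 12 and 2 weeks (log2), and gave mean levels of 59.4 CPM for Reg4 and 127 CPM for Pla2g2a in BSHlow tumors and 10470 CPM for Lypd8 in BSHhigh mice at 2 weeks.

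Same-numbered libraries did not deviate together (r of -0.22 to 0.32, with at most 2 of 4 pairs over 0.1 in a comparison), so the numbers were not taken as pairs. With the replicate block, Reg3b was called between BSHlow tumor and non-tumor colon (1.93, adjusted p = 0.0450), Reg4 at 2 weeks (-2.57, adjusted p = 0.00364), and the calls of Pla2g2a (12 against 2 weeks in BSHlow, adjusted p = 0.0520) and Retnlb (in BSHhigh, adjusted p = 0.0542) were lost. The depth limits Retnlb in BSHlow tumors (0 to 7 counts) and Pla2g2a at 2 weeks (0 to 50 counts).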
